A study of Mus musculus with 24 samples.

Results

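Loss of Myc in primary mouse embryo fibroblasts (MEFs) that already lacked Mlx was followed by comparing 3 RNA-seq libraries of Myc and Mlx double-knockout cells (DKO) with 3 libraries of MlxKO cells. All genes with a CPM (reads of a gene scaled to the size of its library) of at least 1 in at least 3 of the 12 primary libraries were kept, which gave 13101 of the 41710 genes in the primary table. MEFs are connective-tissue cells grown from mouse embryos, and here each genotype was 1 line from embryos pooled together, with 3 RNA samples each. The lines carried floxed alleles of Myc, Mlx or both and 2 copies of a Cre recombinase fused to the estrogen receptor in the ubiquitously expressed ROSA26 locus. MlxKO, MycKO and DKO cells were exposed to 500 nM 4-hydroxytamoxifen (4OHT) for at least 7 days to delete the floxed alleles. RNA was taken on day 10, after at least 3 days without 4OHT. For the WT line the labels give no treatment. MlxKO cells were still dividing at that time and DKO cells had stopped, as the study describes its cultures, so growth state and genotype cannot be told apart here. MycKO against WT, the loss of Myc in cells that keep Mlx, was used as the nearest comparison and shares no library with DKO against MlxKO. The same 4 genotypes after immortalization with SV40 T antigen supplied a further comparison in a separately normalized table.

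Myc is a transcription factor that pairs with Max and binds DNA at E-box motifs, and it is best known for raising the expression of genes for ribosomes, nucleotides and cell division. Mlx is a Max-like protein that pairs with the glucose-sensing factors MondoA (gene Mlxip) and ChREBP, which bind related sites and control genes of sugar and lipid metabolism. Proteins of the Mxd family and Mnt pair with Max, some of them also with Mlx, and generally repress the same kinds of sites. Cells that lack Myc and Mlx thus lack factors from both arms of this network.

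The 6 libraries held 15986856 to 20361685 recovered reads, so 3 reads corresponded to 0.153 to 0.179 CPM. Pearson's r of log2(CPM + 1) across genes was 0.995 to 0.996 among the DKO libraries and 0.994 to 0.995 among the MlxKO libraries. Between the groups it was 0.965 to 0.973. The summed CPM of 13 fibroblast markers was 38840 to 40810 in MlxKO and 47433 to 47777 in DKO. Of these markers 6 were called higher and 2 lower, where 23.3% and 25.9% of all genes tested were. With each library divided by its own total 4 were higher and 2 lower, where 16.9% and 35.3% of all genes were. All 14 macrophage markers were present in both groups at a low summed level, 383 to 478 CPM in MlxKO and 124 to 278 CPM in DKO. Epithelial, endothelial, skeletal muscle, cartilage, adipocyte and neural lists had 1 to 5 members above the filter. Sex-linked genes also differed between the lines. Ddx3y, a Y-linked helicase, was at 60.6, 59.2 and 56.3 CPM in MlxKO and 10.5, 10.9 and 10.1 in DKO, while Xist, the RNA that silences an X chromosome in females, was at 171, 186 and 113 CPM in MlxKO and 545, 529 and 544 CPM in DKO. The sex makeup of the embryo pools and the genotype cannot be told apart in any result of the comparison.

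The targeted genes were read first. Myc was at 85.6, 89.6 and 87.3 CPM in the MlxKO libraries and 21.6, 22.9 and 19.9 CPM in the DKO libraries. The groups did not overlap, and the mean fell from 87.5 ± 1.99 to 21.5 ± 1.47 CPM (SD, n = 3 libraries each), a log2 fold change of -1.98 (SE 0.07, limma adjusted p = 4.83e-12). Fold changes and p-values come from limma on log2(CPM + 1) with Benjamini-Hochberg adjustment over all 13101 genes, and a gene was called at an adjusted p under 0.05. A change given for a gene without a unit is a log2 fold change on this scale. Myc lies on chromosome 15 of GRCm39, chr15:61857227-61862223. Mlx was lower in every MlxKO and DKO library than in every WT library, with 26, 20.5 and 24.5 CPM in WT, 13, 13.5 and 14 in MlxKO and 11.8, 12 and 9.73 in DKO. The Mlx libraries of DKO all lay under those of MlxKO, but the difference was not called (log2 fold change -0.25, limma adjusted p = 0.0696). With library-total scaling it was called, at -0.36 (limma adjusted p = 0.0125). These gene totals do not show whether the reads that remained came from outside the deleted part of either gene. The study measured excision directly and reported that it was nearly complete for each targeted gene, with similar losses of the proteins.

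Members of the Myc network responded unevenly. Mycl, a paralog of Myc, was at 3.41, 3.89 and 4.26 CPM in MlxKO and 13.8, 13.7 and 13 CPM in DKO. Every DKO library exceeded every MlxKO library by a wide margin, and the log2 fold change was 1.59 (limma adjusted p = 2.58e-08). Mycn, the other paralog tested, rose by a log2 fold change of 0.56. Max, the shared partner, was slightly lower at -0.20 (limma adjusted p = 0.0327), and its call was lost in 5 of the 6 fits that left out a library (adjusted p 0.0502 to 0.162). The repressors Mnt and Mxd4 were higher by 0.29 and 0.26, and Mnt lost its call in 4 of those 6 fits (adjusted p 0.0671 to 0.153). The remaining repressors Mxd1, Mxd3, Mxi1 and Mga were not called. Mlxip was higher by 0.26 (limma adjusted p = 0.0129), a call lost without MlxKO library 7 (adjusted p 0.0724).

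Txnip and Arrdc4 encode arrestin-related proteins that limit glucose uptake, and both are classical targets of MondoA with Mlx. Txnip was at 6.88, 6.4 and 5.03 CPM in MlxKO and 23.7, 26.1 and 23.6 CPM in DKO, without overlap. The rise was 4.01-fold in mean CPM (log2 fold change 1.85, limma adjusted p = 2.8e-10). These levels remained under those of WT (122, 116 and 129 CPM) and MycKO (132, 146 and 140.1 CPM), the groups that keep Mlx. Arrdc4 rose from 1.76, 1.97 and 2.72 CPM to 7.87, 5.7 and 6.28 CPM, a log2 fold change of 1.27. The plot of genes by library sets these genes and others described further on beside the groups that keep Mlx.

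Of the 13101 genes, 6437 (49.1%) were called between DKO and MlxKO, 3047 (23.3%) higher and 3390 (25.9%) lower. The MlxKO and DKO libraries did not overlap for 7973 genes (60.9%), with DKO above for 28.9% and below for 32.0% of all genes. Most changes were small. The median size among called genes was 0.49 on the log2 scale, and 355 of the called genes rose and 280 fell by 1 or more. At a log2 size of 2 or more there were 36 rises and 20 falls, and at 3 or more 5 rises and 0 falls. The balance of directions depended on scaling. Of the called genes 47.3% were higher with the deposited scale, against 32.4% with each library divided by its own total, which placed 2219 genes (16.9%) higher and 4631 (35.3%) lower and moved the median of all genes from -0.02 to -0.12. Changes are given here on the deposited scale, whose median was -0.02, and which scaling is the better one was not tested.

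Genes of ribosome production and protein synthesis fell together. Among 66 genes of RNA polymerase I and the nucleolus 59 fell and 0 rose, where 25.9% of all genes tested fell, and the list median was -0.71. In this list, and in those of ribosomal proteins, aminoacyl-tRNA synthetases, chaperonins, purine and sterol synthesis, replication, mitosis and DNA repair, limma called 0 rises, with 0 at an unadjusted p under 0.05 and 0 by edgeR and DESeq2. Dkc1, the pseudouridine synthase that modifies ribosomal RNA, was at 42, 37.1 and 45.6 CPM in MlxKO and 12.7, 13.2 and 13.1 CPM in DKO. The groups were widely apart, and Dkc1 fell 3.2-fold (log2 fold change -1.60, SE 0.09, limma adjusted p = 1.35e-09). Nucleolin (Ncl), an abundant nucleolar protein, fell from 620.3, 606 and 642 to 319, 308 and 316 CPM, and nucleophosmin (Npm1) from 607, 582 and 668 to 285, 278 and 282 CPM. Both differences exceeded the spread of their libraries many times over (log2 fold changes -0.98 and -1.13). Grwd1 and Wdr43, factors of ribosome assembly and ribosomal RNA transcription, fell by 1.17 and 1.11 on the log2 scale.

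Of 81 cytosolic ribosomal protein genes 71 fell and 0 rose (list median -0.58). Rplp0, a protein of the large subunit's stalk, was at 1677, 1588 and 1867 CPM in MlxKO and 980.3, 984 and 989.6 CPM in DKO, a log2 fold change of -0.79. Rps21, of the small subunit, had a log2 fold change of -0.93. For 51 of the 81 genes at least 10% of the 50-base stretches of their transcripts also occur in transcripts of another gene, so reads may have been divided between copies. Translation factors showed 37 falls and 1 rise among 45 (median -0.39). They included the initiation factor Eif3e (-0.85), the elongation factors Eef1b2 (-0.85) and Eef1a1 (-0.60), and Eif5a (-0.67), which is activated by a modification made from spermidine. All 20 aminoacyl-tRNA synthetases, the enzymes that load amino acids onto tRNAs, fell (median -0.53). Seryl-tRNA synthetase (Sars) went from 333, 339.6 and 373 CPM to 229.7, 228 and 217 CPM. All 12 members of the chaperonin and import list fell as well (median -0.60). Among them the mitochondrial chaperonins Hspe1 and Hspd1 changed by -1.13 and -0.96, and Hspa9, a mitochondrial Hsp70, by -0.58.

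The E-box CACGTG, which reads the same on both strands, was searched in windows from 250 bases before to 50 bases after the start of the canonical transcript. It was present in 9.97% of the promoters of 12624 protein-coding genes tested, and 477 tested genes without such a start or of another kind were left out. The share was 11.6% among genes called lower (386 of 3332), 8.54% among genes called higher (253 of 2961) and 9.79% among those not called (620 of 6331). The nucleolar list held it in 12 of 66 promoters (18.2%), and its median log2 fold change was -0.66 with the motif and -0.72 without. Over all promoters these medians were -0.05 and -0.02. The following 60-base stretches, read 5′ to 3′ on the strand of the gene from GRCm39, show the motif in capitals upstream of 4 growth genes that fell and of 2 genes of sugar metabolism, Arrdc4, which rose, and Ldha, which was not called. They let the bases around the motif be compared between genes that moved differently, and a match describes letters, not binding.
Srm (chr4:148675761-148675820, plus strand): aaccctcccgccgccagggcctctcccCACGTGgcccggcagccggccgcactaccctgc
Paics (chr5:77098919-77098978, plus strand): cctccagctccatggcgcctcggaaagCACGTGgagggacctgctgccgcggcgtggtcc
Eif5a (chr11:69812254-69812313, minus strand): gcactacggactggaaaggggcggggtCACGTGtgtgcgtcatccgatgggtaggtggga
Aldh1l2 (chr10:83370020-83370079, minus strand): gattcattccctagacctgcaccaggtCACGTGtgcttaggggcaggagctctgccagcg
Arrdc4 (chr7:68399147-68399206, minus strand): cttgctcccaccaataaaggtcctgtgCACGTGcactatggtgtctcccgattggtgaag
Ldha (chr7:46495153-46495212, plus strand): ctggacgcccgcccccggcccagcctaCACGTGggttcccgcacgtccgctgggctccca

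Pathways that supply nucleotides and their carbon units fell as well. Of 13 purine synthesis genes 11 fell (median -0.71) and of 16 pyrimidine genes 13 fell and 1 rose (median -0.70). Ppat, which commits the pathway to purines, changed by -1.04, and the later purine enzymes Impdh2, Atic and Paics by -0.82, -0.75 and -0.63. Of the stretches of Impdh2 35.8% also occur in a pseudogene. Dctd and Dut, enzymes on the way to thymidine nucleotides, had log2 fold changes of -1.29 and -1.10, and Nme1, a nucleoside diphosphate kinase, of -1.04. Of 12 genes of serine and folate metabolism 9 fell and 1 rose, with a median of -0.91. Shmt1, which passes a carbon unit from serine to folate, was at 13.4, 14.8 and 12.5 CPM in MlxKO and 3.88, 3.8 and 3.46 CPM in DKO. Its groups did not overlap, and it fell 3.65-fold (log2 fold change -1.62, limma adjusted p = 3.84e-09). Psat1, a serine synthesis enzyme, fell from 409, 413 and 460.3 CPM to 192, 195 and 180.3 CPM, and Psph, the last enzyme of that pathway, from 44.6, 46.1 and 45.6 CPM to 22.2, 22 and 21.7 CPM. The mitochondrial folate enzyme Aldh1l2 changed by -1.16.

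Among 10 genes of polyamine metabolism 6 fell and 2 rose. Srm, spermidine synthase, was at 134, 133 and 148 CPM in MlxKO and 71.8, 70 and 67 CPM in DKO (log2 fold change -0.98, limma adjusted p = 1.99e-09). Sms, spermine synthase, and Amd1, which makes their co-substrate, changed by -1.06 and -1.19, and 45.9% of the stretches of Amd1 also occur in other genes, 44.3% in Amd2. Oaz2, an antizyme that holds back polyamine synthesis, rose by 0.51.

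Genes of DNA replication and mitosis were lower in DKO. Of 42 replication genes 39 fell (median -0.73), of 38 mitosis genes 37 fell (median -0.59) and of 41 DNA repair genes 33 fell (median -0.55), with 0 rises in each. Mcm6, a subunit of the replicative helicase, was at 107, 112 and 113 CPM in MlxKO and 50.8, 53.1 and 56.4 CPM in DKO, a log2 fold change of -1.04 (limma adjusted p = 4.96e-09). The helicase loaders Cdc6 and Cdt1 changed by -1.31 and -1.13, and the polymerase subunit Pola1 by -1.19. In mitosis Birc5 (survivin) and Top2a, which untangles chromosomes, changed by -1.01 and -0.69. The repair nuclease Exo1 and the damage kinase Atm changed by -1.12 and -0.99. Since growth state differed between the groups, its part in these falls was not tested.

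Regulators of the cell cycle gave mixed results. Of 20 G1 cyclin, CDK and E2F genes 12 fell, among them cyclin E2 (Ccne2, -1.09), while cyclin D2 (Ccnd2) was not called at -0.05. Of 10 CDK inhibitors and Rb family genes 1 rose and 1 fell. The riser was Cdkn1c, an inhibitor of G1 kinases, at 13.8, 11.8 and 12.5 CPM in MlxKO and 28.4, 26.4 and 27.9 CPM in DKO (log2 fold change 1.06), and the other was the Rb relative Rbl1 (-0.73). Cdkn1a, the p53 target p21 that halts the cell cycle, was at 333, 322 and 349 CPM in MlxKO and 354, 339.8 and 351 CPM in DKO. Its groups overlapped and it was not called (log2 fold change 0.06, limma adjusted p = 0.403). Of 22 genes of the p53 list 7 fell and 2 rose, where 25.9% and 23.3% of all genes did, and with library-total scaling 13 fell, where 35.3% of all genes did. Trp53 itself, the gene of p53, fell from 149, 138 and 152 CPM to 91.5, 98.2 and 98.7 CPM, and its target Ccng1 from 489, 530.1 and 517 CPM to 397, 393 and 370.0 CPM. Plk2, a further target, rose by 0.47.

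Cholesterol synthesis had the lowest median among the pathway lists. Of 19 sterol synthesis genes 18 fell and 0 rose, with a median log2 fold change of -1.21, and 11 fell by 1 or more. Idi1, which interconverts the 5-carbon building blocks of sterols, was at 128, 154 and 156 CPM in MlxKO and 39.5, 34.5 and 30.7 CPM in DKO. The highest DKO library lay far under the lowest MlxKO library, and the fall was 4.18-fold (log2 fold change -2.03, limma adjusted p = 6.18e-10). Of its stretches 17.0% also occur in a pseudogene. Hmgcs1, an early enzyme of the pathway, went from 228, 238 and 248 CPM to 109.7, 113 and 97.6 CPM, and the later enzymes Fdps and Msmo1 changed by -1.47 and -1.50. In the list of sterol uptake and regulation there were 6 rises and 5 falls among 13 genes. Insig1, the protein that holds sterol regulators back when sterols are plentiful, fell from 123, 124 and 123 CPM to 47, 49.6 and 42 CPM (limma adjusted p = 3.66e-10). The sterol carrier Stard4 changed by -1.22.

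Glucose uptake and glycolysis moved the other way. Of 25 genes 12 rose, where 23.3% of all genes tested rose, and 2 fell, with a median of 0.23. With library-total scaling 8 rose, where 16.9% of all genes did, and 4 fell, with a median of 0.12. Slc16a3, which exports lactate, was at 47.2, 45 and 43.5 CPM in MlxKO and 118, 128 and 127 CPM in DKO, a log2 fold change of 1.44 (limma adjusted p = 6.83e-08). Every DKO library lay far above every MlxKO library. The glucose transporter Slc2a1 rose from 116, 127 and 135 CPM to 185, 191 and 186 CPM and Pfkl, a phosphofructokinase of the pathway's committed step, from 79.2, 76 and 78.5 CPM to 148, 144 and 163 CPM. Ldhb, a lactate dehydrogenase subunit, rose by 0.68. The partner subunit gene Ldha, long known as a Myc target, was at 757, 798 and 897 CPM in MlxKO and 862, 836 and 835 CPM in DKO, with overlapping groups (log2 fold change 0.05, limma adjusted p = 0.6). Pkm, the pyruvate kinase gene, was not called either (-0.04). The lactate importer Slc16a1 fell by 0.66.

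Mitochondrial lists had medians nearer 0. Of 22 genes of the tricarboxylic acid cycle 13 fell and 0 rose (limma, median -0.26), with 2 rises at an unadjusted p under 0.05 and 2 by edgeR and by DESeq2. Among the falls were citrate synthase (Cs, -0.35) and Idh2 (-0.49). The respiratory chain had 24 falls and 6 rises among 67 genes (median -0.14), with 15 falls when MlxKO library 7 was left out, and 25.9% of all genes tested fell. The mitochondrial ribosome had 36 falls and 1 rise among 78 (median -0.23). Mrps6 of that list was at 58.3, 66.4 and 88.9 CPM in MlxKO and 23.9, 24 and 24.1 CPM in DKO, and 13.8% of its stretches also occur in other genes, 9.87% in Slc5a3.

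Contractile genes had the highest median among the lists. Of 18 genes 17 rose and 0 fell, with a median of 1.19 (0 falls also at an unadjusted p under 0.05 by limma and by edgeR and DESeq2), and the member not called was Myocd, a regulator of smooth muscle genes, named here after its value was seen. Myh11, the myosin heavy chain of smooth muscle, was at 21.6, 25 and 22.4 CPM in MlxKO and 144, 144 and 160.4 CPM in DKO. It rose 6.49-fold without overlap (log2 fold change 2.65, limma adjusted p = 7.77e-11). Mylk, the kinase that activates that myosin, rose from 52, 48.7 and 47 CPM to 257, 266 and 252 CPM, and smooth muscle actin (Acta2) from 3475, 3268 and 3686 CPM to 6338, 6619 and 6240.2 CPM. Lmod1, which nucleates actin filaments, and the integrin Itga8 rose by 1.57 and 1.66.

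Matrix and secreted factors mostly rose. Of 41 collagen and matrix genes 29 rose and 4 fell (median 0.53). Col8a2, a short-chain collagen, was at 9.33, 8.67 and 8.16 CPM in MlxKO and 38, 32.9 and 41.1 CPM in DKO, and decorin (Dcn), which binds collagen fibrils, at 158, 163 and 174 CPM in MlxKO and 460.5, 436 and 471 CPM in DKO. Thrombospondins Thbs1 and Thbs4 rose by 1.08 and 3.67, and Col1a1, the main collagen of these cells, by 0.37. Col10a1, a collagen of maturing cartilage, went the other way, from 145, 139 and 136 CPM to 45.8, 46.3 and 42.3 CPM. Of 31 tested genes on a list of factors secreted by senescent cells 19 rose and 5 fell (median 0.70). The collagenase Mmp13 was at 32.6, 29.8 and 34 CPM in MlxKO and 116, 112 and 122 CPM in DKO, and the cytokine Il6 at 1.87, 3.71 and 2.88 CPM in MlxKO and 9.76, 7.5 and 8.98 CPM in DKO. Mmp10, a further matrix protease, rose by 1.72. The chemokine Cxcl15 fell from 13.1, 16.9 and 14.1 CPM to 0.818, 1.43 and 0.864 CPM (log2 fold change -2.95).

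Several of the largest rises were in genes with low levels in MlxKO. Gzme, a granzyme protease, was at 2.08, 1.67 and 2.05 CPM in MlxKO and 47.3, 48.5 and 48.5 CPM in DKO (log2 fold change 4.07, limma adjusted p = 7.4e-13), and 25.1% of its stretches also occur in other genes, 12.7% in Gzmd, which changed by 3.33. The amine oxidase Aoc3 rose from 2.88, 2.93 and 2.05 CPM to 49, 51.9 and 56.4 CPM. Sfrp1, a secreted antagonist of Wnt signalling, was already well expressed and rose from 98.7, 92 and 87.8 CPM to 952, 897 and 1009 CPM. Other large rises were those of cytoglobin (Cygb, 2.99), Ndufa4l2 (2.75), haptoglobin (Hp, 2.61) and Cck (2.60). The largest falls included the transcription factor genes Msx1, Hoxd13, Lhx2 and Tfap2b. Msx1 was at 33.2, 31.1 and 35.5 CPM in MlxKO and 4.45, 3.8 and 5.01 CPM in DKO, Hoxd13 at 59.7, 68.7 and 61.8 CPM in MlxKO and 11.9, 11.8 and 9.04 CPM in DKO, and Lhx2 at 8.48, 8.55 and 8.93 CPM in MlxKO and 0.562, 0.634 and 1.09 CPM in DKO, none with overlap. Tfap2b changed by -2.90. Coch, an extracellular matrix protein of the inner ear, fell from 66.5, 75.9 and 65.8 CPM to 8.02, 7.71 and 7.77 CPM (log2 fold change -2.99), and the transporter Slco4a1 changed by -2.48.

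Of 48 lysosome genes 12 rose and 12 fell, close to the 23.3% and 25.9% of all genes tested, and the median of 0.00 became -0.11 with library-total scaling. Naglu and Ctsf, a glycan-degrading enzyme and a protease of the lysosome, rose by 1.00 and 0.93. Lamp1, a membrane protein of the organelle, changed by -0.23 (limma adjusted p = 0.0124), a call lost without DKO library 15 (adjusted p 0.0557). The E-box was present in 14 of the 48 lysosome promoters (29.2%) and 6 of the 17 clock promoters (35.3%), where 9.97% of all promoters held it. It was present in 0 of the 18 contractile, 0 of the 12 chaperonin and 0 of the 22 tricarboxylic acid cycle promoters. Of 17 clock genes 8 rose and 3 fell, with the repressor Nr1d1 at 1.27, the output factor Dbp at 1.43 and Rora at 0.76. Of 19 interferon-stimulated genes 13 fell and 0 rose by limma (median -0.36), with 1 rise at an unadjusted p under 0.05, 0 by edgeR and 1 by DESeq2. An example is Oas1a, an antiviral sensor, which fell from 20.8, 18.4 and 18 CPM to 11, 11.1 and 11.1 CPM. Of its stretches 15.7% also occur in other genes. Beside these immune genes limma called all 14 macrophage markers lower (median -1.20), and edgeR and DESeq2 called 12 each. Leaving out each library in turn gave 11 to 14 falls by limma. Csf1r, the receptor for a macrophage growth factor, was at 42.9, 49.2 and 46.3 CPM in MlxKO and 13, 10.9 and 23.4 CPM in DKO. Lyz2, macrophage lysozyme, was at 166, 216 and 208 CPM in MlxKO and 66.7, 57.1 and 142 CPM in DKO, and the protease Ctss at 15.4, 19.6 and 20.2 CPM in MlxKO and 4.39, 3.38 and 9.5 CPM in DKO. DKO library 15 was the highest of its group for all 3 genes. In bulk RNA fewer cells of a type and less RNA per cell cannot be told apart, and the part of macrophages in the other immune genes was not tested.

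The question whether Mlx changes the response to loss of Myc was approached by setting DKO against MlxKO beside MycKO against WT. MlxKO, MycKO and DKO cells all received the drug that deletes floxed alleles, whereas for WT the labels give no treatment. Drug exposure and Cre activity may thus differ within MycKO against WT but not within DKO against MlxKO. Any such effect enters the interaction, as do differences between lines, and cannot be told apart there from an effect of Mlx. MycKO against WT gave 5541 calls (42.3%), 2677 higher (20.4%) and 2864 lower (21.9%), and 1853 higher and 4051 lower with library-total scaling. The 4017 genes called in both were 62.4% of the calls in DKO against MlxKO and 72.5% of those in MycKO against WT, and 3769 of them (93.8%) had the same direction. The log2 fold changes of the 13101 genes had a Pearson's r of 0.61 and a Spearman's rho of 0.67 between the comparisons, as a description across genes that are not replicates of each other. Some growth lists had similar counts of falls in both. With Mlx present the nucleolar list had 56 falls, ribosomal proteins 69 and replication 39, with 0 rises in each. The nucleolar median was -0.56 with Mlx present and -0.71 without. Aminoacyl-tRNA synthetases had 15 falls (median -0.27) with Mlx present and 20 (median -0.53) without. Myc itself had a log2 fold change of -1.98 without Mlx and of -1.79 with Mlx, a difference that was not called (interaction adjusted p = 0.238, limma).

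**Figure D1:**
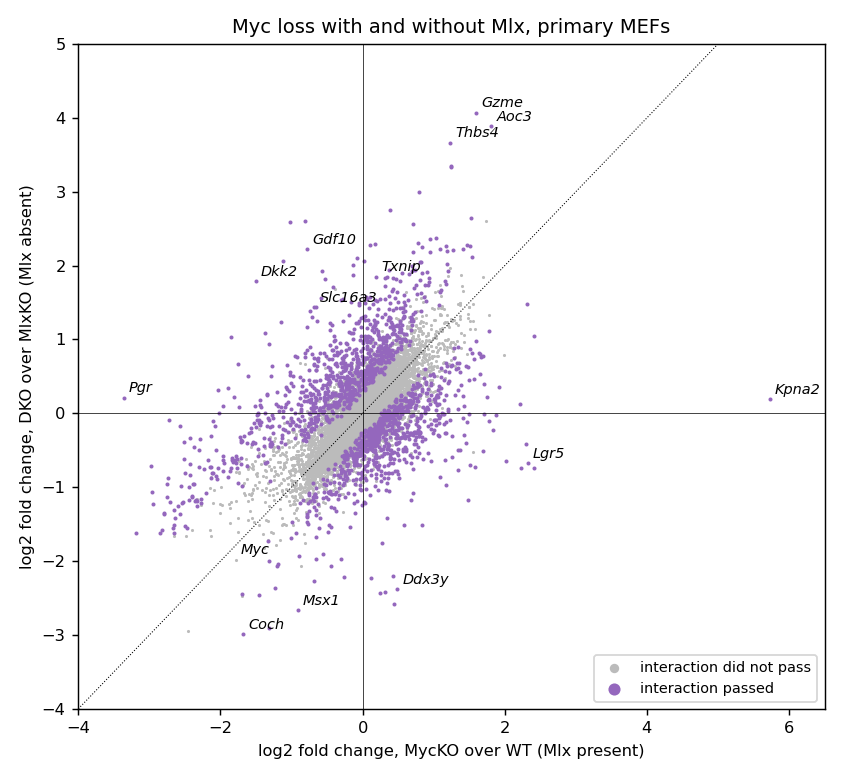
Log2 fold change of each of the 13101 genes on loss of Myc with Mlx present (horizontal axis, MycKO minus WT) and without Mlx (vertical axis, DKO minus MlxKO), with the 1774 genes called for the interaction in purple, the others in grey and a dotted line where both are equal. Pearson's r across genes is 0.61, and Kpna2 stands farthest from the diagonal with 5.73 horizontally and 0.19 vertically.

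A test of the difference itself, (DKO minus MlxKO) minus (MycKO minus WT), called 1774 genes (13.5%), 979 positive (7.47%) and 795 negative (6.07%). Of these, 557 were called in DKO against MlxKO alone, 471 in MycKO against WT alone, 487 in both with the same direction and 248 in both with opposite directions, and 11 in neither. Of the 487, 299 changed by more without Mlx. Differences were unevenly spread over the lists. Of 66 nucleolar genes 5 were called for the interaction by limma, all negative, where 6.07% of all genes were negative. Limma called 2 of 42 replication genes, both negative, 0 of 81 ribosomal protein genes and 0 of 38 mitosis genes. At an unadjusted p under 0.05 the ribosomal protein genes had 2 positive and 10 negative interactions and the mitosis genes 2 and 2. The nucleolar genes had 1 positive and 17 negative at that p, and the replication genes 0 and 8. edgeR called 0 ribosomal protein and 1 mitosis gene, and DESeq2 called 1 of each. Of the aminoacyl-tRNA synthetases 6 of 20 were called negative, among them Sars, which was not called with Mlx present (log2 fold change -0.12, interaction -0.50, limma adjusted p = 0.000677). Hspa9 gave the same picture (-0.12 with Mlx, interaction -0.46). Of the serine and folate genes 5 of 12 were negative, including Shmt1 (-0.69) and Psph (-0.69).

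Interactions were frequent in sterol synthesis, glycolysis, contractile and interferon-stimulated genes. For sterol synthesis 15 of 19 were negative and 0 positive. The list median was -0.60 with Mlx present and -1.21 without, and Idi1, at 93.3, 98.1 and 118 CPM in WT and 44.1, 49.7 and 40.4 CPM in MycKO, had an interaction of -0.85 (limma adjusted p = 0.00118). The starting levels differed, with a summed CPM of the sterol synthesis list of 1509 to 1639 in WT and 1878 to 2084 in MlxKO. After loss of Myc it was 979 to 1026 in MycKO and 792 to 884 in DKO. The larger fall without Mlx thus began from a higher level. For glycolysis 16 of 25 were positive and 2 negative, and the list went from 13 falls and 2 rises (median -0.32) with Mlx present to 2 falls and 12 rises without. Its summed CPM was 8870 to 10492 in WT and 7063 to 8068 in MycKO. In MlxKO it was lower than in WT, at 7930 to 8568, and in DKO it was 8853 to 9062. Slc16a3 fell from 92.8, 85.9 and 66.1 CPM in WT to 52.8, 41.1 and 57.7 CPM in MycKO, the opposite of its rise without Mlx, and its interaction was 2.12 (limma adjusted p = 3.26e-07). Ldha had a log2 fold change of -0.61 with Mlx present and an interaction of 0.66. Txnip was not called with Mlx present (0.19) and had an interaction of 1.66 (limma adjusted p = 3.21e-07). Its level in MlxKO was far under that in WT. The interaction compares ratios, not gains in CPM, and does not show that Txnip gained more CPM without Mlx. For contractile genes 12 of 18 were positive, among them Mylk (1.34) and Myh11, which was at 33.7, 34.7 and 23.7 CPM in WT and 94.3, 77.1 and 96.4 CPM in MycKO (interaction 1.13).

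Genes of the p53 list, lysosome and antiviral response differed in the other sense or in size. Cdkn1a rose from 301, 315 and 297 CPM in WT to 457, 422 and 447 CPM in MycKO but was not called without Mlx, and the interaction was -0.48 (limma adjusted p = 0.000507). Ccng1 rose with Mlx present (0.33) and fell without it (interaction -0.74), and 6 of 22 genes of the list had a negative interaction. Lysosome genes rose in 26 and fell in 2 of 48 with Mlx present, against 12 and 12 without, and 14 had a negative and 2 a positive interaction. Interferon-stimulated genes fell in 18 of 19 with Mlx present (median -1.31) and in 13 without (median -0.36), with 16 positive interactions. Macrophage markers moved in the same way, with medians of -2.55 and -1.20 and 12 positive interactions of 14, and their summed CPM was 356 to 701 in WT and 60.8 to 92.5 in MycKO. The number of positive macrophage interactions was 7 without DKO library 15, MlxKO library 5 or MycKO library 11, and 6 without MlxKO library 7, WT library 1 or WT library 2.

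**Figure D2:**
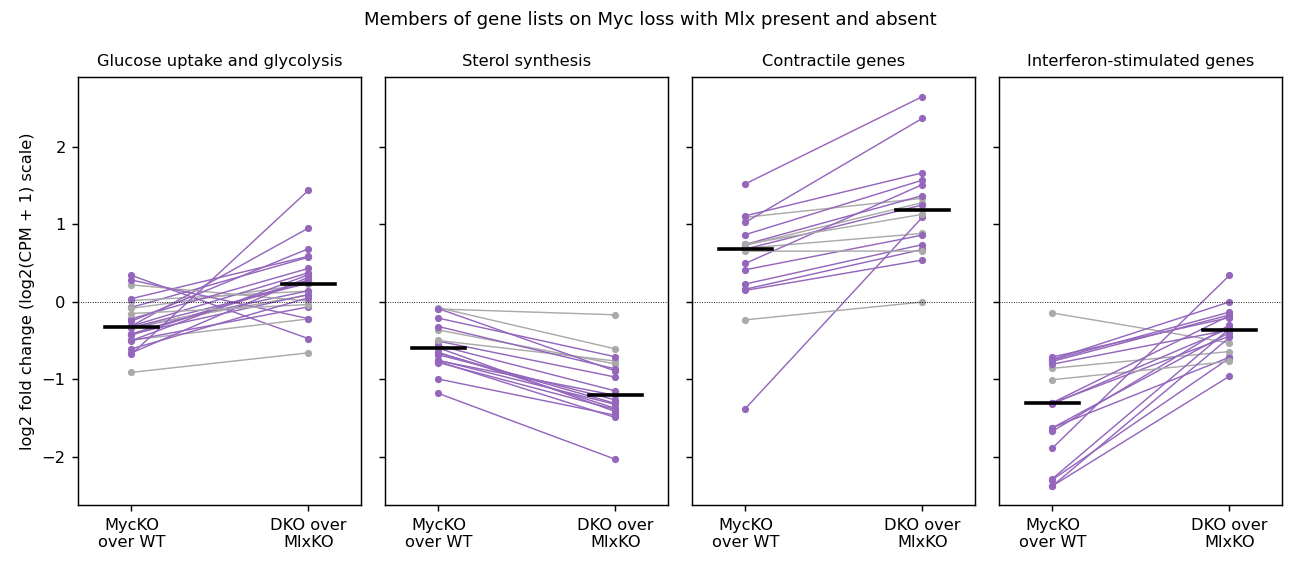
Log2 fold change on log2(CPM + 1) of each member of 4 gene lists on loss of Myc with Mlx present (left of each panel, MycKO over WT) and without Mlx (right, DKO over MlxKO), with lines joining a gene, purple where its interaction was called and grey where not, and black bars at the medians. The median of sterol synthesis goes from -0.60 to -1.21, that of glycolysis from -0.32 to 0.23, that of contractile genes from 0.69 to 1.19 and that of interferon-stimulated genes from -1.31 to -0.36.

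The largest single interactions included genes that moved in opposite directions. Dkk2, a Wnt antagonist, was at 62, 60.8 and 69.8 CPM in WT and 22.6, 21.4 and 21.8 CPM in MycKO, but at 13.8, 15.1 and 13.8 CPM in MlxKO and 52.2, 50.1 and 52.3 CPM in DKO. It fell in the former pair and rose in the latter (interaction 3.29). Gdf10, a growth factor of the BMP family, rose from 18.6, 18.3 and 17.7 CPM to 87.8, 85.6 and 91.6 CPM without Mlx and fell with Mlx present (-0.78). The acute-phase genes Saa3, Hp and Cfb had interactions of 3.61, 3.42 and 3.19, each with a fall with Mlx present and a rise without. Of the stretches of Cfb 57.3% also occur in other genes. Pgr, the progesterone receptor, was at 11.7, 13.3 and 12 CPM in WT and at 0.111 to 1.53 CPM in the other 9 libraries. Its interaction was 3.57, and WT stood apart from every other group. Whether drug treatment, which the labels do not give for WT, has a part in this was not tested. Lgr5, a receptor of Wnt-amplifying ligands, fell from 216, 228 and 212 CPM to 139, 139 and 133 CPM without Mlx and rose with Mlx present (2.32, interaction -2.99). Kpna2, a nuclear import receptor, was at 1.92, 2.23 and 2.63 CPM in WT and 155, 205 and 157 CPM in MycKO and was not called without Mlx (interaction -5.54), and 44.8% of its stretches also occur in other genes, 44.0% in Kpna2rt.

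In immortalized cells DKO against MlxKO gave 3879 calls (30.1%) of 12880 genes, 2094 higher (16.3%) and 1785 lower (13.9%). With library-total scaling 1268 genes were higher and 3072 lower, so the balance of directions turned with the scaling. Of 12402 genes tested in both tables, 2007 were called in both, 33.0% of the 6080 primary and 53.9% of the 3721 immortalized calls, and 1214 of these (60.5%) had the same direction. Pearson's r across genes was 0.11 and Spearman's rho 0.09. The tables were normalized separately, so these are values side by side and no difference was tested. Myc had a log2 fold change of -3.53 in the immortalized cells. Nucleolar genes fell in 37 of 66 (median -0.58) and ribosomal protein genes in 37 of 81 (median -0.62), close to the primary medians. For replication 10 fell and 3 rose (median -0.20) and for mitosis 2 fell and 6 rose (median 0.09), against 39 and 37 falls in primary cells. Sterol synthesis had 7 falls and 1 rise (median -0.33) and glycolysis 7 falls and 1 rise (median -0.23). Contractile genes rose in 11 of 16 (median 0.72), with Myh11 at 2.57. Txnip fell in the immortalized cells (-1.15, limma adjusted p = 0.00737), as did Sfrp1 (-1.66) and Dkk2 (-2.96), each of which rose in primary cells, and Coch rose (2.67).

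**Figure D3:**
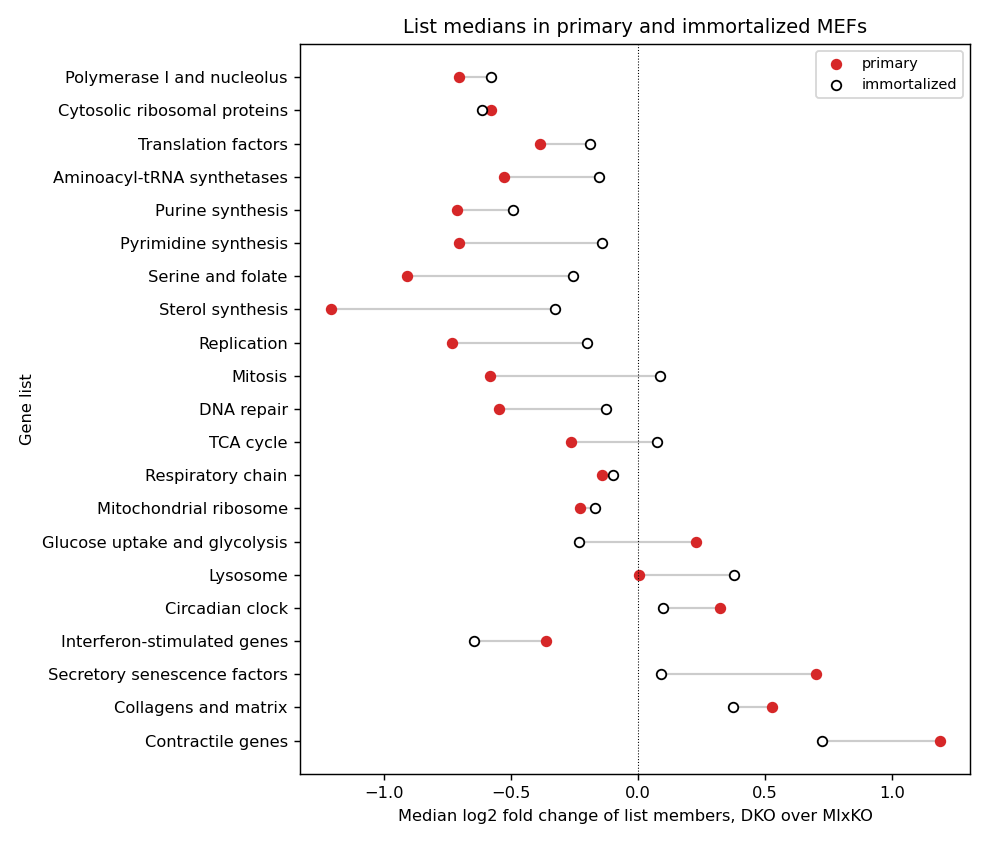
Median log2 fold change of 21 gene lists, DKO over MlxKO, in primary (filled points) and immortalized cells (open points), each fitted within its own table. Nucleolar genes are at -0.71 and -0.58, mitosis genes at -0.59 and 0.09.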

How the data were processed

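Poly-A RNA of 12 primary and 12 immortalized MEF samples (4 genotypes with 3 libraries each) was sequenced in directional libraries on a NovaSeq. The authors mapped reads to GRCm39 in CLC Genomics Workbench 22 and deposited 1 table of CPM per cell type. The deposited CPM values are scaled signal whose sums per primary library run from 950106 to 1051865, and the scaling method is not given in the sources used here. Within each library 100% of the values were whole multiples of 1 read within 0.1 read, which gave the read totals and allowed count tests as alternatives.

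Genes with CPM of at least 1 in at least 3 of 12 libraries were tested with limma 3.58.1 (R 4.3.3, eBayes with a mean trend, two-sided) on log2(CPM + 1), with the 12 libraries of a table in 1 fit and Benjamini-Hochberg adjustment over all genes tested. A fold change on this scale understates the change of low genes. Libraries of a genotype come from 1 pooled line, so p-values measure the spread between libraries, which may be technical, and with 3 against 3 a permutation test of a single gene cannot go under p = 0.1.

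The genes named were all Myc and Mlx network members, the 10 largest rises and falls, the 4 called members of each list with the largest changes and its most abundant member, the 6 largest interactions in each direction, and markers, from which those described were taken. The 38 gene lists, the comparison and its members were chosen with earlier results of these data known. Reads of near-identical genes were assessed from 50-base stretches shared between GENCODE M39 transcripts. Promoters were read from GRCm39. The interaction tests the difference of both Myc contrasts. In data simulated for DKO against MlxKO over 12957 genes limma recovered 74% of genes changed 1.5-fold, 89.8% changed 2-fold and 97.9% changed 4-fold, and called 9 of 12761 unchanged genes. Only 200 genes were changed in that simulation, against 6437 called in the real comparison, and no shift of scaling was simulated. Its count of false calls therefore need not hold for the real comparison. Alternatives were other pseudocounts, filters and scalings, a robust variance prior, a fit of the compared groups alone, edgeR 4.0.16 and DESeq2 1.42.0 on recovered reads, a minimum fold change and leaving out each library.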

Additional observations from a re-analysis of the deposited data

Results flagged for a closer look

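Each value here is a difference in the response to loss of Myc, the log2 fold change of DKO over MlxKO minus that of MycKO over WT, and each passed the limma interaction test at an adjusted p under 0.05. Over all genes 1774 passed (13.5%), with 7.47% of all genes positive and 6.07% negative. Because the labels give no treatment for WT, an effect of the drug cannot be told apart from an effect of Mlx in these values. By list 15 of 19 sterol synthesis genes and 14 of 48 lysosome genes were negative. Positive were 16 of 25 glycolysis genes, 16 of 19 interferon-stimulated genes and 12 of 18 contractile genes. So were 12 of 14 macrophage markers and 13 of 31 secreted senescence factors. The opposite sign was called for 2 glycolysis genes, 2 lysosome genes and 3 secreted factors. The macrophage count ran from 6 to 14 when each library was left out in turn.

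Among network and sugar genes the interaction was 1.21 for Mycl, 1.66 for Txnip, 0.90 for Arrdc4, 0.65 for Slc2a1, 1.26 for Pfkl, 0.66 for Ldha, 0.94 for Ldhb and 2.12 for Slc16a3. In protein synthesis, folding and serine use it was -0.50 for Sars, -0.61 for Hspe1, -0.46 for Hspa9, -1.04 for Mrps6, -0.69 for Shmt1 and -0.69 for Psph. In sterol synthesis it was -0.59 for Hmgcs1, -0.85 for Idi1, -0.72 for Msmo1 and -0.61 for Insig1. For cell cycle and p53 targets it was -0.58 for Ccnd2, -0.48 for Cdkn1a and -0.74 for Ccng1, and for the lysosome protein Lamp1 -0.49.

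Secreted and contractile genes had interactions of 1.41 for Mmp10, 0.89 for Mmp13, 2.44 for Thbs4, 1.13 for Myh11 and 1.34 for Mylk. Among genes with the largest changes the values were 2.47 for Gzme, 2.08 for Aoc3, 2.10 for Sfrp1, 2.19 for Cygb and 2.37 for Ndufa4l2, and -1.30 for Coch, -1.59 for Tfap2b and -1.75 for Msx1. Among genes at 5 CPM or more in their highest group, predicted genes left out, the largest interactions were 3.61 for Saa3, 3.57 for Pgr, 3.42 for Hp, 3.29 for Dkk2, 3.19 for Cfb and 3.0 for Gdf10 on the positive side, and -5.54 for Kpna2, -3.16 for P2rx3, -3.02 for Eif2s3y, -2.99 for Lgr5, -2.97 for Cyp4b1 and -2.86 for Ddx3y on the negative side. Plac8, at a log2 fold change of 0.01 without Mlx and -2.03 with it, had 2.04.

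Immune genes had interactions of 1.57 for Oas1a, 1.42 for Rtp4 and 1.10 for Csf1r. That of Csf1r was lost without MlxKO library 5 or 7 and without WT library 1 or 2 (adjusted p 0.052 to 0.069). Ddx3y and Eif2s3y are Y-linked, and the sex makeup of the embryo pools cannot be told apart from genotype.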

How the results depend on the processing

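No paired analysis was possible because nothing links the numbers in the column names to the replicate each label names. Of 138 named genes in DKO against MlxKO none reversed under any alternative run, 7 lost their call under at least 1 (Max, Mnt, Mxd4, Mlxip, Col1a1, Lamp1 and Pdgfra) and Mlx gained it. Col1a1 lost it without the filter on low values (adjusted p = 0.259), and with library-total scaling Mnt (0.179), Mxd4 (0.0599), Mlxip (0.125) and Pdgfra (0.146) did. Of 51 named interactions Csf1r alone lost its call, also without the filter (0.0852) and with the robust prior (0.0914).

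edgeR called 3232 genes higher and 3200 lower, and 6150 genes were called by limma, edgeR and DESeq2. DESeq2 gave no adjusted p for 1 gene in each contrast. Leaving out each library gave 5516 to 5952 calls for DKO against MlxKO, 2629 to 2847 higher and 2881 to 3105 lower, and 1393 to 2180 for the interaction, 781 to 1149 positive and 612 to 1031 negative. It left 615 to 644 list members called, 15 to 24 respiratory chain falls, 1 to 2 CDK inhibitor and Rb rises and 6 to 14 positive macrophage interactions. Those numbered 5 without the filter and 5 with the robust prior.

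A minimum log2 size of 1 left 635 calls, 355 higher and 280 lower, 510 interactions, 340 positive and 170 negative, and 106 list members. Falls were then 10 in the nucleolus, 0 in ribosomal proteins, translation factors, aminoacyl-tRNA synthetases, the TCA cycle, the respiratory chain, p53 targets and interferon-stimulated genes, 1 each in chaperonins, purine synthesis, the mitochondrial ribosome, mitosis and G1 regulators, 4 each in pyrimidine synthesis and in serine and folate, 2 each in polyamines and DNA repair, and 11 each in sterol synthesis and replication. Rises were 1 in glycolysis, 0 in sterol uptake and in the lysosome, 9 in secreted factors, 4 in matrix, 11 in contractile genes and 2 in the clock. Interactions were 0 in sterol synthesis and in the lysosome, 2 in glycolysis, 8 in interferon-stimulated genes, 4 in contractile genes and 5 in secreted factors. Library-total scaling gave 13 falls in the p53 list, and in immortalized cells 1268 rises and 3072 falls. CDK inhibitors and Rb genes had 2 rises with median-ratio scaling, edgeR and DESeq2. The cause of these changes was not tested. A level of 3 reads was at most 0.179 CPM in the DKO and MlxKO libraries, 0.196 CPM over all primary and 0.183 CPM over the immortalized libraries, and lower levels cannot be told from 0.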
